A study of Homo sapiens with 6 samples.

Results

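G2/M and mitotic genes, a set of 44 genes for the cyclins, kinases, checkpoint, kinetochore, kinesin and spindle proteins that carry a cell from the end of DNA replication through division, were followed in MOLM-13 cells. The members were taken by gene name from the 24878 genes of the deposited table, and all 44 were found once each. MOLM-13 is an established human acute myeloid leukaemia line, described in the labels as AML-M5, the monocytic type. RNA-seq of poly-A selected RNA was available for 6 libraries in 3 groups of 2. The controls carried a control vector and received no doxycycline. The other groups carried a doxycycline-inducible vector for knockout (KO) of CaMK2D, a kinase switched on by calcium and calmodulin, and were collected 3 or 5 days after induction (day 3 and day 5 below). The groups therefore differ in vector and doxycycline at once, and day 3 and day 5 differ in time and length of doxycycline exposure at once. The labels do not say whether a line was 1 clone, nor whether the 2 libraries of each group were grown separately. The p-values below therefore measure the spread between these libraries alone, and that spread may be technical. Both days are compared with the same 2 control libraries.

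Mitotic genes are a textbook example of periodic transcription. Their mRNAs are low in G1, climb through S phase and peak in G2 and mitosis, because the DREAM complex represses their promoters in resting cells and the B-MYB, MuvB and FOXM1 proteins activate them in dividing ones. The CHR element, bound by MuvB, and CCAAT boxes, bound by NF-Y, are the known promoter elements of this programme. In bulk RNA the share of cells in G2 or mitosis and the amount of each mRNA per cell cannot be told apart.

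Each library held between 15456770 and 21081298 counts. A gene with a count of 0 could stand at up to 0.193 CPM (counts scaled to library size) in the shallowest library, the level of 3 counts, which covers counting error only. CAMK2D, the targeted gene, stood at 23.0 and 14.5 CPM in control libraries, 14.7 and 15.6 in day 3 libraries and 28.98 and 28.1 in day 5 libraries, with adjusted p of 0.437 and 0.118 by edgeR against control. Its mRNA level does not mark the knockout, and the groups are named as labelled. All 10 myeloid markers (SPI1, CD33, FLT3, LYZ, CSF1R, ITGAM, CD14, FCGR1A, MPO and HOXA9) had counts in every library, CD14 at or below 2.97 CPM. HBB, CD3E, EPCAM, PAX2 and COL1A2, fixed as markers of other cell types, were not analysed here, and the fibroblast markers COL1A1 and PDGFRB together held at most 0.575 CPM.

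Levels between genes were compared as FPKM, which corrects for gene length and library size, as the authors deposited them. CDC20 had the highest mean over the 6 libraries, 57.8 FPKM, followed by BUB3 at 49.9, TOP2A at 38.1 and TPX2 at 37.0. That rank came from the KO-labelled libraries, where CDC20 had means of 56.9 FPKM at day 3 and 86.4 at day 5. In control libraries its mean was 29.9 FPKM, below BUB3 at 49.6, TPX2 at 43.5 and TOP2A at 39.1. CDC20 activates the anaphase-promoting complex, BUB3 belongs to the spindle checkpoint, TOP2A untangles sister chromatids, and TPX2 nucleates spindle microtubules. CCNB1 was the highest of the CDK1 group at 27.7 FPKM and CDC25C the lowest at 1.77. Among the kinases AURKB led at 20.1 and NEK2 was lowest at 7.26, and among the kinesins KIF2C led at 18.8 and KIF23 was lowest at 3.30. TTK (5.29) was the lowest checkpoint gene, CENPA (8.28) the highest centromere gene, BIRC5 (19.3) the lower neighbour of TOP2A and MKI67 (20.6), and ANLN (5.22) and ECT2 (3.41) the cytokinesis pair, all in FPKM.

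At the low end, 3 members stood apart. CENPE, a kinetochore motor, had 0.266 FPKM, NUSAP1, a spindle-associated protein, 0.615 FPKM and PRC1, the midzone bundling protein, 0.0246 FPKM. PRC1 had 3 and 2 counts in control libraries, 5 and 4 in day 3 libraries, and 1 and 0 in day 5 libraries. It did not pass the filter on low counts, so 43 of the 44 members were tested. In GENCODE release 29, 57.6% of the exon bases of PRC1 are shared with AC068831.7 on the same strand, and 62.2% of those of NUSAP1 with AC087721.2. AC068831.7 held 423 counts over the 6 libraries, and AC087721.2 had no counts. How reads in shared exons were assigned is not stated in the sources used, and the part of these overlaps in the low counts was not tested. Some members past the threshold in a comparison below also shared exon bases. The share was 15.9% for FOXM1 (with ITFG2 on the opposite strand) and 10.2% for BUB1B (with its read-through BUB1B-PAK6). It was 7.0% for CENPA (with SLC35F6) and 2.9% for HMMR (with HMMR-AS1). Apart from PRC1 and NUSAP1, the remaining members reached at most 11.6%, for PLK1 (with AC008870.3).

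The promoters of the members share letters of the CHR and CCAAT elements. RefSeq promoter windows (GRCh38.p14), from 250 bases before to 50 bases after a transcription start, were matched by symbol for 37 members, 6 of them with more than 1 start, giving 47 windows. AURKA, BUB3, TTK, UBE2C, TPX2, BIRC5 and FOXM1 had no entry. The motifs searched on both strands were TTTGAA or TTCGAA for the CHR, CCAAT for NF-Y and GGCGGGA for E2F. The CHR letters were in 66.0% of the member windows, in 12.1% of the 14512 windows of tested genes and in 16.4% of all 35116 windows. CCAAT was in 74.5%, 34.5% and 34.6% of them, and both together in 55.3%, 4.8% and 6.4%. GGCGGGA was in 25.5%, 22.9% and 15.4%, so the members' share was near that of the tested genes for this motif. The motifs were not particular to the members. Of 128 windows of the further mitotic genes described below, 46.9% held CHR letters, 54.7% CCAAT, 28.1% both and 33.6% GGCGGGA. By gene, 28 of 37 members held CHR letters in at least 1 window, 30 held CCAAT, and CENPE, CKAP2 and KIF2C held neither. In 24 members the CHR letters began within 50 bases of a start, and in 26 CCAAT began between 120 and 40 bases before one. A match is a run of letters and not a measured binding site.

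**Figure D1:**
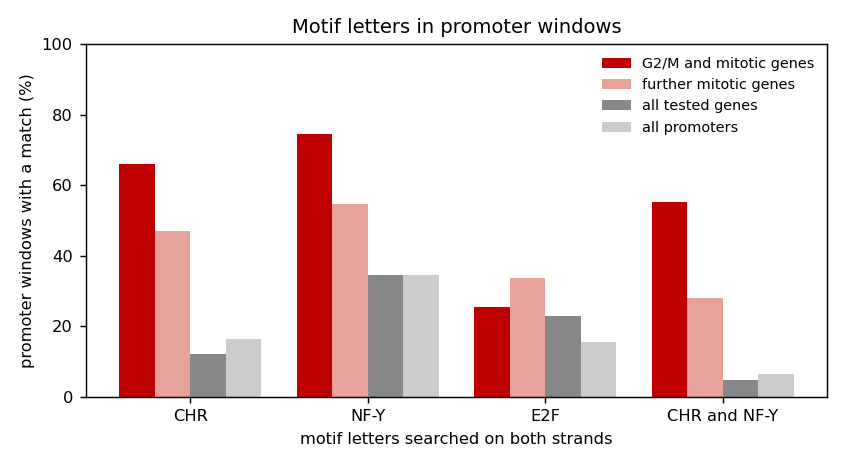
Share of promoter windows (y axis, percent) with the letters of each motif (x axis) for the G2/M and mitotic genes, the further mitotic genes, all tested genes and all promoters, as bars from 0. The G2/M and mitotic genes stand at 66.0% for the CHR and 74.5% for NF-Y, against 12.1% and 34.5% of the windows of tested genes. The further mitotic genes stand at 46.9% and 54.7%.

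The 100 bases before the RefSeq start are shown for the 6 members with a single RefSeq start that passed the threshold in a comparison below, and for CCNB1 and PLK1, which are central to mitotic entry. CHR and CCAAT letters of either strand are in capitals, so ATTGG and TTCAAA mark matches that read on the other strand.
BUB1B, chr15:40160969-40161068, plus strand: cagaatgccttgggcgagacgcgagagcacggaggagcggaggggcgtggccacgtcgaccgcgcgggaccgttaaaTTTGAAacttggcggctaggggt
CENPA, chr2:26785956-26786055, plus strand: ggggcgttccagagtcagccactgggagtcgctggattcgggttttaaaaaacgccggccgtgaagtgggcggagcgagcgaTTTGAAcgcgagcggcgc
GTSE1, chr22:46296770-46296869, plus strand: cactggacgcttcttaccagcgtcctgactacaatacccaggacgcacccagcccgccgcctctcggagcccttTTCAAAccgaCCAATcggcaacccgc
CDC20, chr1:43358881-43358980, plus strand: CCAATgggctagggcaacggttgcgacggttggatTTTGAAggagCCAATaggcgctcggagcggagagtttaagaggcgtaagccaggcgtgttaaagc
NEK2, chr1:211675622-211675721, minus strand: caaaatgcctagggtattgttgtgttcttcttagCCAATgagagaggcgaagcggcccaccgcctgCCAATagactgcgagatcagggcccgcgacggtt
HMMR, chr5:163460532-163460631, plus strand: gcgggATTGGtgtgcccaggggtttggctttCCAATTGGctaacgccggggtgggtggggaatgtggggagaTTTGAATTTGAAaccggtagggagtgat
CCNB1, chr5:69167050-69167149, plus strand: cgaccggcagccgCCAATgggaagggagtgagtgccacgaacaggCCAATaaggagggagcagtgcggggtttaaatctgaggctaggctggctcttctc
PLK1, chr16:23678789-23678888, plus strand: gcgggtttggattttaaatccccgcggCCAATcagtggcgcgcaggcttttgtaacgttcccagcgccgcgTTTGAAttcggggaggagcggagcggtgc
BUB1B and CENPA show a CHR and no CCAAT in this stretch. NEK2 and CCNB1 show a pair of CCAAT boxes and no CHR letters. CDC20, HMMR, GTSE1 and PLK1 show both, and HMMR has 2 CHR runs side by side. Of the 3 shown that fell at day 3, BUB1B and CENPA are among the first kind in this stretch and GTSE1 among the last. CENPA has CCAAT letters farther out, at 205 and 130 bases before the start. CDC25B, which also fell but has several starts and is not shown, has a window with CHR letters (38 bases before the start) and CCAAT (73 before). Of the 3 shown that rose, NEK2 has CCAAT alone and CDC20 and HMMR have both. A relation of motif kind to direction was not tested.

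Summed over the 44 genes, the mitotic mRNAs were lowest at day 3. Genes with many counts weigh most in this sum. In control replicate 1, MKI67 held 7721 and BUB3 6608 of the 47921 member counts. The 44 genes held 0.31% and 0.237% of all counts in control libraries, 0.223% and 0.183% in day 3 libraries, and 0.36% and 0.257% in day 5 libraries. The means were 0.273% ± 0.052 (SD, n = 2), 0.203% ± 0.0284 (SD, n = 2) and 0.308% ± 0.0725 (SD, n = 2). The day 3 libraries lay below both controls, and the day 5 libraries lay above both day 3 libraries and overlapped the controls in range. Day 3 over control was 0.743 (0.72 between the libraries numbered 1 and 0.774 between those numbered 2). Day 5 over control was 1.13 (1.16 and 1.09), and day 5 over day 3 was 1.52 (1.61 and 1.41). A sum over chosen members was not tested.

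**Figure D2:**
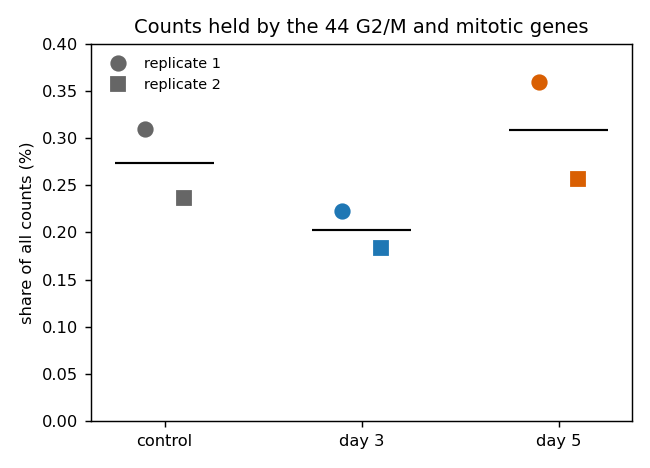
Share of all counts (y axis, percent) held by the 44 genes in each library (circles replicate 1, squares replicate 2) by group (x axis), with the group mean as a line. The lowest library is day 3 replicate 2 at 0.183% and the highest is day 5 replicate 1 at 0.36%.

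Library by library, the highest of the 6 values was in day 5 replicate 1 for 32 of the 43 tested members, against 15.9% of all tested genes. The lowest was in day 3 replicate 2 for 28 of them, against 15% of all tested genes. The other highest values were in control replicate 1 for 8 members (20.7% of all tested genes) and control replicate 2 for 3 (17.8%), and 0 were at day 3. The other lowest values were in control replicate 2 for 5 members (18%), day 5 replicate 2 for 4 (18.5%), and control replicate 1 (22%) and day 3 replicate 1 (13.3%) for 3 each. The libraries of a group were themselves uneven for these genes. Replicate 1 exceeded replicate 2 in all 3 groups for 32 of 43 members, against 20.2% of all tested genes, with median log2 ratios of 0.31 in control libraries, 0.29 at day 3 and 0.49 at day 5. AURKB, the kinase of the chromosomal passenger complex, was the 1 member with replicate 2 higher in all 3 groups. It stood at 38.5 and 64.1 CPM in control libraries, 30.7 and 40.8 in day 3 libraries, and 45.5 and 50.4 in day 5 libraries.

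Other markers moved with the replicate number. The summed level of the 10 myeloid markers was 2427 and 3061 CPM in control libraries, 734 and 899 in day 3 libraries, and 623 and 884 in day 5 libraries, with replicate 2 higher in each group. By gene, 7 of the 10 had replicate 2 higher in all 3 groups. HOXA9 (87.6 and 41.8, 67.97 and 48.2, and 75.5 and 45.7 CPM) and FCGR1A had replicate 1 higher in all 3, and FLT3 in the controls and at day 3. SPI1, FLT3, ITGAM and MPO fell at both days and FCGR1A at day 5, while CD33 had log2 fold changes of -0.018 and -0.055. The epithelial keratins KRT8 and KRT18 together were 34.1 and 17.5, 25.2 and 18.7, and 30.7 and 21.5 CPM in the same order, with replicate 1 higher. KRT18 alone had replicate 1 higher in all 3 groups. KRT8 had it higher in control libraries and at day 3, but at day 5 stood at 6.0 and 8.8 CPM. The part of these differences in the mitotic gene values was not tested.

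**Figure D3:**
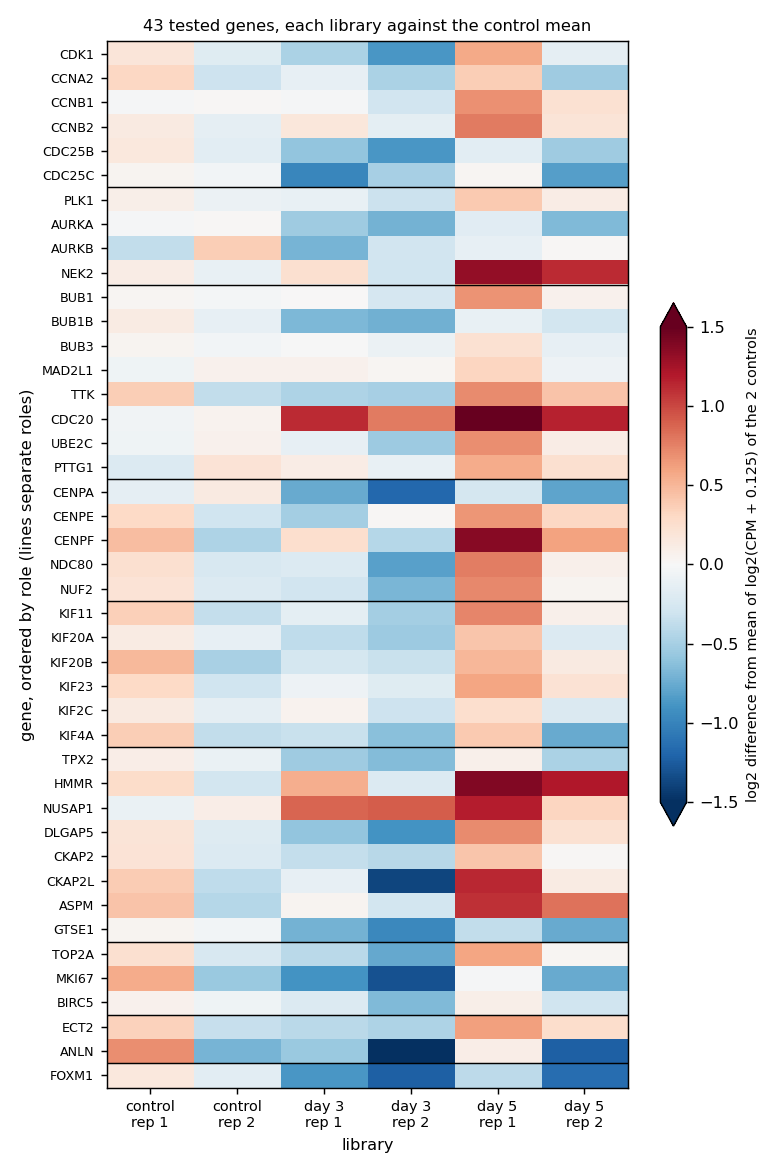
Level of the 43 tested genes (y axis, by role) in each library (x axis), as the log2 difference from the mean of the 2 controls (colour scale, red higher, blue lower, ends of the scale at -1.5 and 1.5). Day 3 replicate 2 is the bluest column and day 5 replicate 1 the reddest, and the columns of replicate 1 are redder than those of replicate 2.

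At day 3, 5 members fell and 1 rose against control. FOXM1, CENPA, GTSE1, CDC25B and BUB1B fell, by between 1.05 and 0.71 on the log2 scale, and CDC20 rose by 0.96. These were 14.0% of the tested members, against 11.7% of all tested genes, so the share called was near the background. The 5 that fell were 11.6% of members against 5.99% of all tested genes, and the 1 that rose 2.33% against 5.72%. The fitted log2 fold change was below 0 for 38 of 43 members, against 50% of all tested genes, with a median of -0.42 against -0.0001. The day 3 libraries lay below both controls for 21 members (30.1% of all tested genes) and above both for NUSAP1 and CDC20 (30.3%). At an unadjusted p under 0.05, 11 were lower (14.5% of all tested genes) and 1 higher (14.4%). DESeq2 called the same 6 members and, as lower, AURKA and TPX2, against 18.1% of all tested genes.

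FOXM1, the forkhead activator of this programme (chromosome 12, 2857681 to 2877155, minus strand of GRCh38), stood at 77.3 and 62.5 CPM in control libraries, 37.8 and 29.6 in day 3 libraries, and 53.1 and 31.5 in day 5 libraries. All 4 KO-labelled libraries were below both controls. The log2 fold change was -1.05 (SE 0.26, adjusted p = 0.0438 by edgeR) at day 3 and -0.72 (SE 0.26, adjusted p = 0.109 by edgeR) at day 5.

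CDC25B, a phosphatase that starts CDK1 activation (chromosome 20, 3786772 to 3806121), stood at 54.3 and 43.8 CPM in control libraries, 32.3 and 26.6 in day 3 libraries, and 43.7 and 33.7 in day 5 libraries. Its log2 fold change was -0.74 (SE 0.20, adjusted p = 0.0478 by edgeR) at day 3 and -0.34 (adjusted p = 0.278 by edgeR) at day 5. CDC25C, the related phosphatase, was low, at 7.65 and 7.24, 3.70 and 5.22, and 7.58 and 4.15 CPM, and missed the threshold at both days.

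GTSE1, a microtubule-binding protein of G2 that restrains p53 (chromosome 22, 46296741 to 46330810), stood at 39.6 and 37.6 CPM in control libraries, 23.7 and 19.7 in day 3 libraries, and 29.9 and 22.9 in day 5 libraries, with no overlap between control and either day. The log2 fold change was -0.83 (SE 0.19, adjusted p = 0.0295 by edgeR) at day 3 and -0.55 (SE 0.19, adjusted p = 0.0892 by edgeR) at day 5. BUB1B, the checkpoint kinase BUBR1 (chromosome 15, 40161023 to 40221136), stood at 45.9 and 38.7 CPM in control libraries, 26.3 and 25.5 in day 3 libraries, and 38.9 and 34.8 in day 5 libraries. It fell at day 3 by 0.71 on the log2 scale (SE 0.16, adjusted p = 0.0289 by edgeR), and at day 5 it overlapped the controls (-0.20, adjusted p = 0.437 by edgeR). BUB1 had 52.6 and 50.3 CPM in control libraries, 51.6 and 43.3 in day 3 libraries, and 82.4 and 53.9 in day 5 libraries, with log2 fold changes of -0.12 and 0.40. BUB3 (-0.05 and 0.06) and MAD2L1 (0.04 and 0.14) likewise missed the threshold at both days.

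CENPA, the histone H3 variant that marks centromeres (chromosome 2, 26764289 to 26801067), stood at 20.1 and 24.5 CPM in control libraries, 13.0 and 9.73 in day 3 libraries, and 18.4 and 12.8 in day 5 libraries. The 4 KO-labelled libraries were below both controls, with a log2 fold change of -0.97 (SE 0.26, adjusted p = 0.0466 by edgeR) at day 3 and -0.52 (SE 0.25, adjusted p = 0.208 by edgeR) at day 5. The outer kinetochore genes NDC80, NUF2, CENPE and CENPF missed the threshold at both days. NDC80 stood at 26.7 and 19.2 CPM in control libraries, 19.5 and 12.8 in day 3 libraries, and 38.5 and 23.9 in day 5 libraries.

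CDC20 (chromosome 1, 43358955 to 43363203) went the other way. It stood at 59.0 and 63.2 CPM in control libraries, 133 and 105 in day 3 libraries, and 208 and 136 in day 5 libraries, so every KO-labelled library was above both controls. The log2 fold change was 0.96 (SE 0.21, adjusted p = 0.0305 by edgeR) at day 3 and 1.49 (SE 0.22, adjusted p = 0.00658 by edgeR) at day 5. UBE2C, the ubiquitin-conjugating enzyme of the same anaphase machinery, was 20.6 and 22.4, 19.7 and 14.7, and 34.9 and 23.2 CPM, and PTTG1, the securin it helps destroy, 24.7 and 33.0, 30.8 and 26.4, and 41.9 and 33.8 CPM. Neither passed the threshold at either day.

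The day 3 calls depended on single libraries. Without control replicate 1 the call went to 1 member, AURKB, which was not among the 6. Without control replicate 2 it went to 4, of which GTSE1, CDC25B and BUB1B were among the 6 and TTK was not. Without day 3 replicate 1 or day 3 replicate 2 no member was called, and far fewer of all tested genes were called as well. The log2 fold change was then below 0 for 39 of 43 members (8041 of all 15796 genes tested) and 30 of 43 (8037 of 15766). A group left with 1 library takes its spread from the others in these fits. CDC20 missed the threshold without either control (adjusted p = 0.184 and 0.117 by edgeR) or either day 3 library (0.152 and 0.0622), and so did FOXM1 (0.206 and 0.0913, 0.117 and 0.235) and CENPA (0.0676 and 0.139, 0.112 and 0.271). GTSE1, BUB1B and CDC25B missed it without control replicate 1 (adjusted p = 0.0815, 0.1 and 0.166 by edgeR), day 3 replicate 1 (0.104, 0.158 and 0.13) or day 3 replicate 2 (0.216, 0.196 and 0.289). With upper-quartile factors CDC25B (adjusted p = 0.0543 by edgeR) and CENPA (0.051) missed it, and CDC25B also when only the 4 libraries compared were fitted (0.0522). The median of the members was -0.18 without control replicate 1 and -0.28 without day 3 replicate 2.

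**Figure D4:**
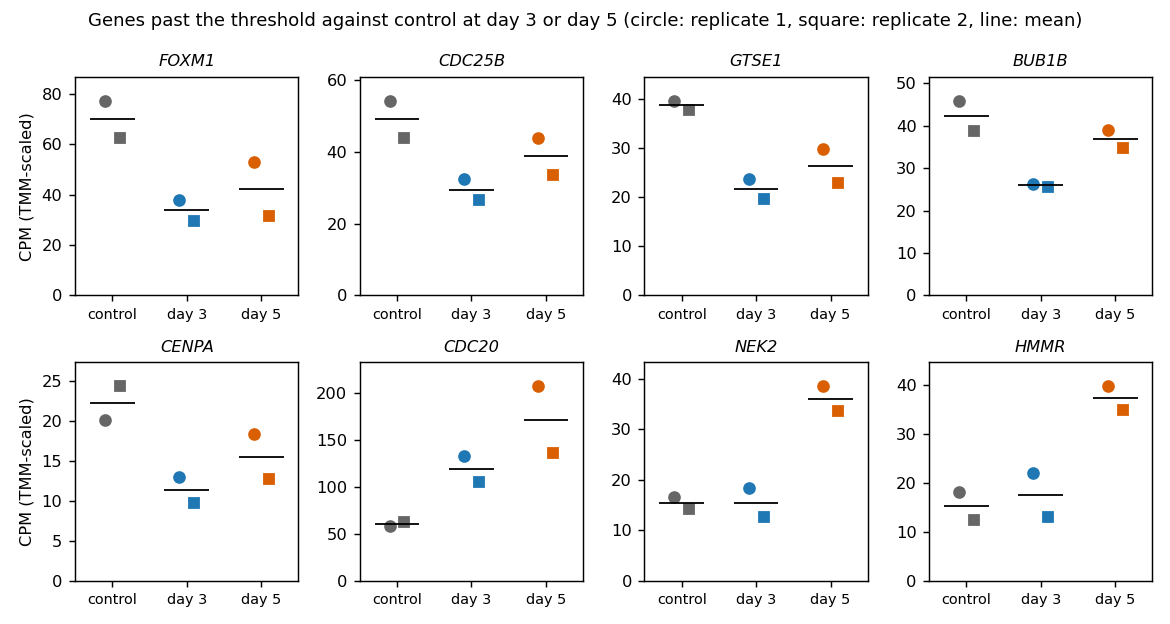
Level (y axis, TMM-scaled CPM from 0) of the 8 genes past the threshold against control at either day, by group (x axis), with circles for replicate 1, squares for replicate 2 and the group mean as a line. FOXM1, CDC25B, GTSE1, BUB1B and CENPA are lowest at day 3, and CDC20, NEK2 and HMMR are highest at day 5.

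At day 5, 3 members rose and 0 fell against control. CDC20 is described above, and the others were NEK2, a centrosomal kinase, and HMMR, a spindle protein that also binds hyaluronan. They were 6.98% of tested members, against 14.5% of all tested genes called in either direction and 7.44% called higher. The log2 fold change was above 0 for 29 of 43 members (51% of all tested genes) and below 0 for 14 (49%), with a median of 0.25 against 0.015. The day 5 libraries lay above both controls for 15 members (29.6% of all tested genes) and below both for 5 (28.4%), namely CDC25B, AURKA, CENPA, GTSE1 and FOXM1. At an unadjusted p under 0.05, 6 members were higher (16.1% of all tested genes) and 2 lower (14.8%). DESeq2 called 5 members, ASPM (higher) and FOXM1 (lower) beside these 3, against 20.4% of all tested genes.

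NEK2 (chromosome 1, 211658657 to 211675630, minus strand) stood at 16.6 and 14.3 CPM in control libraries, 18.3 and 12.5 in day 3 libraries, and 38.5 and 33.5 in day 5 libraries. Its log2 fold change was 1.22 (SE 0.22, adjusted p = 0.0124 by edgeR) at day 5 and -0.0023 (adjusted p = 0.996 by edgeR) at day 3. HMMR (chromosome 5, 163460203 to 163491945) stood at 18.2 and 12.5 CPM in control libraries, 22.1 and 13.1 in day 3 libraries, and 39.8 and 34.9 in day 5 libraries, with a log2 fold change of 1.28 (SE 0.29, adjusted p = 0.0262 by edgeR) at day 5 and 0.20 (adjusted p = 0.697 by edgeR) at day 3. For both genes the day 5 libraries lay above the other 4, which overlapped each other. ASPM, a spindle pole protein, was next, at 22.3 and 12.2 CPM in control libraries, 17.0 and 13.6 in day 3 libraries, and 35.5 and 29.2 in day 5 libraries (log2 fold change 0.91, SE 0.29, adjusted p = 0.0755 by edgeR).

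Leaving out libraries left 2 to 4 members past the threshold at day 5. CDC20 missed it without control replicate 1 (adjusted p = 0.0607 by edgeR), and NEK2 without day 5 replicate 1 (0.0595). HMMR missed it without control replicate 2 (adjusted p = 0.0976 by edgeR) or day 5 replicate 1 or 2 (0.103 and 0.0805). FOXM1 passed it as lower without day 5 replicate 1 (-1.16, adjusted p = 0.0366 by edgeR). ASPM and TTK passed it as higher without control replicate 1. The median of the members was 0.43 without control replicate 1, 0.08 without control replicate 2, 0.01 without day 5 replicate 1 and 0.54 without day 5 replicate 2.

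CDK1, CCNB1, PLK1, MKI67 and TOP2A passed the threshold at neither day. CDK1, the kinase that drives mitotic entry, stood at 84.7 and 65.4 CPM in control libraries, 53.7 and 40.6 in day 3 libraries, and 110 and 67.96 in day 5 libraries (log2 fold changes -0.67 and 0.25, adjusted p = 0.146 and 0.573 by edgeR). Its day 3 libraries lay below the other 4. Its partner CCNB1 was 63.9 and 65.0, 63.8 and 52.7, and 103 and 75.7 CPM (-0.15 and 0.47, adjusted p = 0.631 and 0.111 by edgeR). PLK1, the kinase of mitotic entry and spindle assembly, was 80.1 and 70.95, 69.7 and 60.5, and 98.8 and 81.2 CPM (-0.21 and 0.25, adjusted p = 0.389 and 0.297 by edgeR).

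MKI67, the Ki-67 antigen that coats mitotic chromosomes, was uneven already in control libraries, at 496 and 229 CPM, with 181 and 136 in day 3 libraries and 334 and 200.2 in day 5 libraries. Its log2 fold changes were -1.19 (SE 0.44, adjusted p = 0.156 by edgeR) and -0.44 (SE 0.44, adjusted p = 0.56 by edgeR). TOP2A stood at 292 and 211, 188 and 146, and 374 and 254 CPM, with its day 3 libraries below the other 4 and an edgeR adjusted p of 0.158 at day 3. ANLN, the cytokinetic ring scaffold, had the largest ratio of replicate 1 to replicate 2 among the tested members in each group, at 65.0 and 24.6, 27.3 and 10.7, and 42.8 and 17.0 CPM. All 6 kinesins missed the threshold at both days, with log2 fold changes of -0.52 to -0.12 at day 3 and -0.12 to 0.40 at day 5.

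**Figure D5:**
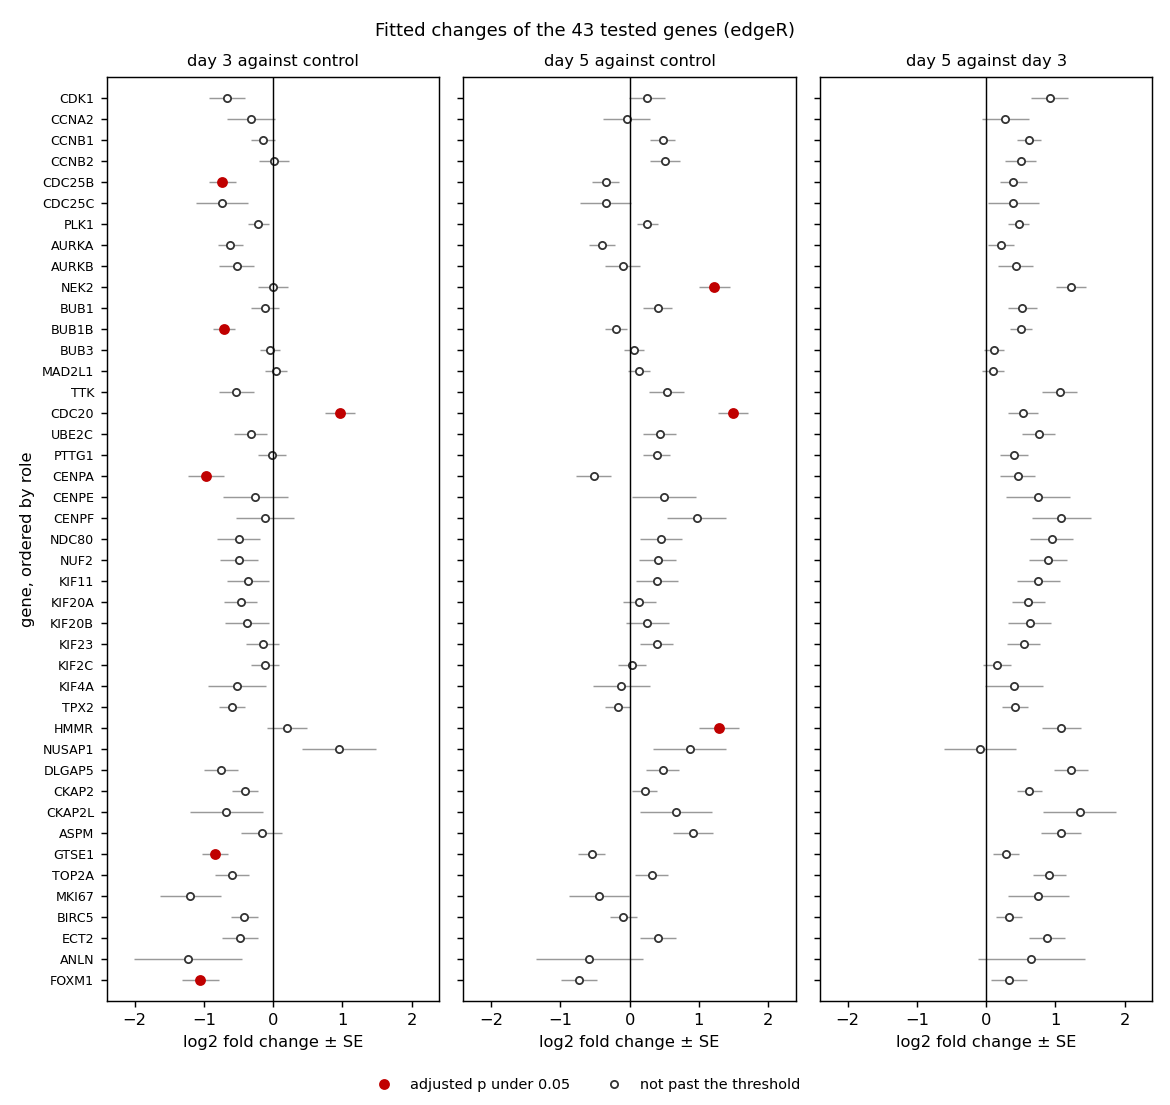
Fitted log2 fold change (x axis, bars ± SE) of the 43 tested genes (y axis, by role) in the 3 comparisons, with filled red points for an edgeR adjusted p under 0.05. Most points are left of 0 at day 3 (38 of 43), and all but NUSAP1 are right of 0 for day 5 against day 3.

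Between the days, 0 of 43 members passed the edgeR threshold, against 0.0274% of all tested genes, while 42 of 43 had a log2 fold change above 0 (52.1% of all tested genes). The exception was NUSAP1, at -0.09, with 47.8% of all tested genes below 0. The median was 0.54 against 0.02 over all tested genes. The day 5 libraries lay above both day 3 libraries for 30 members (25.5% of all tested genes) and below both for 0 (23.8%). At an unadjusted p under 0.05, 21 members were higher (8.55% of all tested genes) and 0 lower (6.55%), and DESeq2 called 7 members higher, against 2.98% of all tested genes in either direction. These 7 were ASPM, HMMR, TTK, NEK2, DLGAP5, TOP2A and CDK1, a set named after its values were seen. Without the filter on low counts edgeR called 15 of 44, all higher, against 2.41% of all genes. With the replicate number as a block, edgeR called 23 of 43, all higher, against 7.65% of all tested genes. The labels do not establish that same-numbered libraries are pairs.

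Within the libraries numbered 1, day 5 was above day 3 for 43 of 43 members (51.9% of all tested genes), and within those numbered 2 for 37 of 43 (50.2%), with medians of 0.70 and 0.40 on the log2 scale. The largest fitted rises from day 3 were for CKAP2L (1.35, SE 0.53), DLGAP5 (1.22, SE 0.25), NEK2 (1.22, SE 0.22), HMMR (1.09, SE 0.29), CENPF (1.08, SE 0.43), ASPM (1.08, SE 0.29) and TTK (1.06, SE 0.25), with edgeR adjusted p from 0.162 to 0.322. DLGAP5, which stabilises kinetochore fibres, stood at 20.5 and 15.7 CPM in control libraries, 11.9 and 9.62 in day 3 libraries, and 29.3 and 20.98 in day 5 libraries. TTK, the kinase MPS1 at the head of the spindle checkpoint, stood at 28.8 and 17.3, 16.1 and 15.7, and 36.6 and 30.0 CPM. In both genes the 3 groups did not overlap, an order (day 3 below both controls, day 5 above both) that 5 of 43 members and 1.58% of all tested genes showed. Without day 5 replicate 1 the number of members above 0 was 33 of 43 (7833 of all 15779 genes tested), with a median of 0.32. Without day 3 replicate 2 it was 41 of 43 (7964 of all 15766 genes tested), with a median of 0.45. The median with all libraries was 0.54.

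The wider mitotic machinery was read from 110 further genes that are not members, all of them tested. At day 3, 7 fell and 2 rose, with a median log2 fold change of -0.16, and at day 5, 5 fell and 8 rose, with a median of -0.06. These are 8.18% and 11.8% of the list, against 11.7% and 14.5% of all tested genes, so the shares called were at or below the background. Between the days 0 of the 110 were called by edgeR, against 0.0274% of all tested genes. At an unadjusted p under 0.05, 19 were higher (8.55% of all tested genes) and 1 lower (6.55%). DESeq2 called 4 of the 110, against 2.98% of all tested genes. The medians moved with single libraries. Without control replicate 1 or 2 the day 3 median was -0.03 and -0.26. Without day 3 replicate 1 or 2 it was -0.28 and -0.0001. The day 5 median was 0.04 and -0.17 without control replicate 1 or 2, and -0.34 and 0.14 without day 5 replicate 1 or 2. Between the days the median was 0.16 with all libraries. It was 0.24 and 0.03 without day 3 replicate 1 or 2, and -0.09 and 0.37 without day 5 replicate 1 or 2.

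The smallest adjusted p values of that list at day 3 belonged to RBL2, INCENP, PIMREG and ZWINT. RBL2, the p130 subunit of DREAM, fell by 0.62 on the log2 scale (SE 0.135, adjusted p = 0.0256 by edgeR), INCENP, the scaffold of the passenger complex, by 0.83 (SE 0.18, adjusted p = 0.0268 by edgeR) and ZWINT, a kinetochore protein, by 0.998 (SE 0.22, adjusted p = 0.0284 by edgeR). PIMREG, a mitotic regulator, rose by 1.52 (SE 0.33, adjusted p = 0.0268 by edgeR), and the other gene that rose was MIS18A, a CENPA loading factor. The others that fell were NUMA1, PLK4, HASPIN and KIF18B. MIS18A and these genes were named after their values were seen. RBL2, INCENP and PIMREG missed the threshold without control replicate 1 (adjusted p = 0.0737, 0.0896 and 0.0935 by edgeR), ZWINT without control replicate 2 (0.102), and all 4 without day 3 replicate 1 (0.198, 0.0726, 0.0568 and 0.134) or 2 (0.123, 0.187, 0.159 and 0.153).

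At day 5 the smallest adjusted p values belonged to UBE2S, PIMREG, NSL1 and HASPIN. UBE2S, the ubiquitin chain-extending partner of UBE2C, rose by 0.88 on the log2 scale (SE 0.126, adjusted p = 0.0052 by edgeR), PIMREG by 2.21 (SE 0.34, adjusted p = 0.00673 by edgeR) and NSL1, a kinetochore protein, by 0.68 (SE 0.12, adjusted p = 0.0119 by edgeR). HASPIN, the kinase that marks centromeric histone H3 for the passenger complex, fell by 1.32 (SE 0.25, adjusted p = 0.015 by edgeR). UBE2S and PIMREG stayed past the threshold without each library in turn. NSL1 missed it without day 5 replicate 1 or 2 (adjusted p = 0.0674 and 0.0536 by edgeR) and HASPIN without day 5 replicate 1 (0.0681). The other genes that rose were CENPK, CEP55, MIS18A, SGO2 and ARHGAP11A, and the others that fell were ZWINT, NCAPH, E2F8 and RBL2. These were named after their values were seen.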

How the data were processed

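RNA-seq counts and FPKM values were taken from 1 table that the authors deposited, with 1 column of each per library. The submitters' processing notes list the build GRCh38 and the tools HTSeq 0.11.2, HISAT2 and DESeq2 1.26.0 without saying which did what. The sources used do not state the annotation, strand setting or filters. Each of the 24878 gene identifiers was found in GENCODE release 29, used for positions and overlaps. Whole-number counts, as deposited, were fitted with edgeR 4.0.16 (R 4.3.3). The filterByExpr filter (count of at least 10, total of at least 15) left 14601 genes. TMM factors, 1 model of 3 groups without a block, the robust quasi-likelihood test (prior count 0.125) and Benjamini-Hochberg adjustment over all tested genes at 0.05 were used. The SE of a log2 fold change was obtained by dividing its size by the root of the F statistic. CPM are TMM-scaled. The FPKM values the authors deposited served only to compare levels between genes. Replicates of a group differed by more than sampling noise. The fit was tested on simulated data. Alternatives were other factors (relative log expression, upper quartile), no filter, 5 CPM in at least 2 libraries, DESeq2 1.42.0, fits of 2 groups, a replicate block, and leave-one-out fits. Genes were named by a rule: members past the threshold, the highest and lowest FPKM of each role, CDK1, CCNB1, PLK1, FOXM1 and MKI67, and up to 4 further genes with the smallest adjusted p; others are marked or given by value. Members and lists were chosen with earlier results of these data known. Depth was 15456770 to 21081298 counts per library. Some marker genes are not reported here.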

Additional observations from a re-analysis of the deposited data

Results flagged for a closer look

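Among the 43 tested members, 5 had both day 3 libraries below both controls and both day 5 libraries above both controls, against 1.58% of all tested genes, and 0 had the reverse order (251 of 14601 tested genes). They were TTK, DLGAP5, CCNB1, PLK1 and UBE2C. The difference between the days was tested as day 5 against day 3, where the log2 fold change was 1.06 for TTK (edgeR adjusted p = 0.185), 1.22 for DLGAP5 (0.162), 0.62 for CCNB1 (0.213), 0.47 for PLK1 (0.243) and 0.76 for UBE2C (0.243). None of the 5 passed the edgeR threshold. With DESeq2, TTK and DLGAP5 passed as higher at day 5 than at day 3, and with edgeR without a low-count filter TTK, DLGAP5, CCNB1 and UBE2C did.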

How the results depend on the processing

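Leaving out each library gave 0 to 8 members called at day 3, 2 to 4 at day 5 and 0 to 0 between the days; 0 to 13, 7 to 10 and 0 to 0 further genes; and 282 to 1906, 723 to 1874 and 1 to 15 of all genes, in the same order of comparisons. Without a low-count filter the counts were 12, 7 and 15 members, 26, 30 and 10 further genes, and 2925, 3234 and 599 of all genes. DESeq2 called 8, 5 and 7 members, 23, 21 and 4 further genes, and 2638, 2977 and 435 of all genes. With only the 2 groups compared, day 5 gave 7 further genes and 1315 of all genes. The labels give the same replicate numbers in each group, and the titles share a letter, A for replicate 1 and B for replicate 2. Same-numbered libraries deviated together (r across genes 0.522, 0.446 and 0.634). With 2 numbers and no stated shared culture the pairing is not established. With the replicate number as a block, 19 members were called at day 3 (1 higher, 18 lower), 16 at day 5 (11 higher, 5 lower) and 23 between the days (23 higher, 0 lower), with 39, 41 and 17 further genes and 4064, 4418 and 1117 of all genes (27.8%, 30.3% and 7.65% of those tested). Every member called without the block was also called with it. Among the named genes, direction reversed for NEK2 at day 3 with upper-quartile factors (0.0168), without a filter (0.0025), and within the range without each library (-0.29 to 0.26). It also reversed within the ranges without each library for HMMR (-0.22 to 0.54) and CCNB1 (-0.28 to 0.0016) at day 3, CDK1 (-0.16 to 0.55) and MKI67 (-0.92 to 0.21) at day 5, and FOXM1 between the days (-0.11 to 0.65), none of them called. The ratio of the summed level ranged without each library from 0.655 to 0.859 for day 3 over control, 0.941 to 1.32 for day 5 over control and 1.27 to 1.77 for day 5 over day 3. In windows of 100 bases before to 50 after the start, CCAAT was in 59.6% of member windows (22.2% of those of tested genes), GGCGGGA in 12.8% (13.8%) and the CHR letters in 57.4% (5.1%). Windows of the further mitotic genes had 40.6%, 18.8% and 37.5%, in the same order of motifs. Some of these fits held fewer libraries or more genes, and the cause of these changes was not tested. With 2 libraries per group, the spread rests on 3 residual degrees of freedom.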
